A study of Mus musculus with 20 samples.

Results

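Clock output transcription factors are the regulators through which the circadian clock of a cell reaches many of its target genes. This set held 8 genes, Dbp, Tef, Hlf, Nfil3, Ciart, Bhlhe40, Bhlhe41 and Rora, taken by symbol from the 46095 gene symbols of the count table. All 8 passed the filter on low counts that left 14440 genes for testing. Messenger RNA was sequenced from the livers of 20 mice, 5 in each of 4 groups. WT chow and WT NASH were wild-type mice, and KO chow and KO NASH were mice with a liver-specific knockout of Pck1 (Pck1-cKO). The chow groups had a Chow diet and the NASH groups a diet that induces steatohepatitis (NASH diet), in both cases for 24 weeks. All mice were 31 to 33 weeks old. No source used here gives the promoter that drove the Cre recombinase or the time of day of collection. The series set out to examine the role of Pck1, which encodes cytosolic phosphoenolpyruvate carboxykinase, in diet-induced NASH.

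In the mammalian clock, CLOCK or NPAS2 pairs with BMAL1 (gene Arntl) and activates genes that carry an E-box, among them the Per and Cry genes, whose products then inhibit the activators. Dbp is itself driven by this pair. DBP, TEF and HLF form the PAR bZIP family, which activates genes through a motif called the D-box, and NFIL3 (also called E4BP4) represses through the same motif. CIART (CHRONO), BHLHE40 (DEC1) and BHLHE41 (DEC2) repress at E-boxes, and RORA activates Arntl and other genes through the ROR element that the REV-ERB receptors (Nr1d1, Nr1d2) use for repression. In liver these outputs reach enzymes of drug, bile acid, haem and glucose metabolism, and the level of each such transcript depends on the hour at which a liver is taken.

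Library totals ran from 9958935 to 20601955 counts, and the common biological coefficient of variation was 39%. Pck1, the targeted gene, had mean levels of 3573 ± 1139 (WT chow), 2290 ± 511 (WT NASH), 626 ± 175 (KO chow) and 445 ± 112 CPM (KO NASH; SD, n = 5). CPM are a gene's reads relative to the scaled size of its library. Y-linked counts showed 5 males and no female in WT chow, 1 male (replicate 4) and 4 females in WT NASH, 3 males and 2 females in KO chow, and 4 males and 1 female in KO NASH. In 6 libraries (WT chow replicates 3, 4 and 5, WT NASH replicate 4, KO chow replicates 4 and 5) expression fell with gene length relative to the other 14, with slopes of -0.35 to -0.25 against 0.01 to 0.19. In WT chow the 3 libraries of that kind lay below the other 2 for 6 of the 8 genes (all but Ciart and Bhlhe41), and in KO chow the same held for 5 (Dbp, Tef, Hlf, Bhlhe40 and Rora). The share of all genes that lay this way was not counted, so whether these counts are particular to the set was not tested. Hepatocyte markers summed to 42768 to 114196 CPM over all libraries, against 1.198 to 22.4 CPM for innate lymphoid and NK cell markers and 3.50 to 16.04 CPM for T and B cell markers. In whole liver, fewer cells of a type and less RNA per cell cannot be told apart.

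The 300 bases around each start in RefSeq (250 before, 50 after, GRCm38.p6) were searched on both strands for the E-box CACGTG, for the D-box as TTATGTAA or TTACGTAA, and for the ROR core AGGTCA. These letters occurred in 7.15%, 1.06% and 16.3% of 32851 such windows. The table held a window for 7 of the 8 genes, all but Bhlhe40. The E-box was found in Ciart, Tef and Bhlhe41. Ciart had 3 copies, 116, 58 and 44 bases before the start, a number reached by 29 windows (0.0883%). Tef had 1 copy in each of its windows, 127 and 138 bases before the start, and Bhlhe41 had 1 at 153 bases. Nfil3 had the ROR core 12 bases before its start, and no window of the set held the D-box letters. A match of letters is not a measured binding site. The 3 stretches below show upstream bases of 1 window with the E-box for each of these genes, with its letters in capitals. The first Tef window is not shown. Each is written 5′ to 3′ on the strand of the gene. The Tef stretch holds the 250 bases before its RefSeq start, which lies inside the gene, downstream of its first start. Those of Ciart (227 bases) and Bhlhe41 (112 bases) were cut where an annotated transcript begins upstream of the RefSeq start. The distances above run from the RefSeq start and not from the end of a stretch. They are the Ciart promoter on the minus strand (chr3:95882252-95882478), the second Tef promoter on the plus strand (chr15:81811164-81811413) and the Bhlhe41 promoter on the minus strand (chr6:145865559-145865670).
Ciart: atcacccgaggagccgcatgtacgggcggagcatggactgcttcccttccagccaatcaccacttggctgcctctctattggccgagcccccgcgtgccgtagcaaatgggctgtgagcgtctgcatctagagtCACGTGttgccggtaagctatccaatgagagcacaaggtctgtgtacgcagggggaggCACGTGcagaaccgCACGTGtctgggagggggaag
Tef: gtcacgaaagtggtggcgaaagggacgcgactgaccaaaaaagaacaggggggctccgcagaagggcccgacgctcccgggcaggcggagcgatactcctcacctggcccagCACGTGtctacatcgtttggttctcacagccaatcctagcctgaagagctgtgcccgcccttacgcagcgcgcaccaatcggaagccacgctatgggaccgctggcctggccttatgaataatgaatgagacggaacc
Bhlhe41: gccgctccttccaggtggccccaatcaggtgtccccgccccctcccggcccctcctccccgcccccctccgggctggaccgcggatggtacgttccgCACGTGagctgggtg

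The 4 groups were compared in pairs with edgeR, and a gene was called at an adjusted p under 0.05 over all 14440 genes. In WT NASH against WT chow 3 of the 8 genes were called, 2 higher (Nfil3 and Bhlhe40) and 1 lower (Bhlhe41). Over all genes 5.93% were called, 2.69% higher and 3.24% lower. The 5 libraries of one group lay wholly apart from the 5 of the other for 4 of the 8, Dbp besides those 3, against 6.15% of all genes. Between KO NASH and WT NASH 4 of the 8 were called, 3 higher (Dbp, Ciart and Bhlhe41) and 1 lower (Bhlhe40), where 9.65% of all genes were called, 4.9% higher and 4.74% lower. Here 3 of the 8 did not overlap (Dbp, Bhlhe40 and Bhlhe41), against 14.1% of all genes.

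Neither of the other pairs gave a call. In KO chow against WT chow edgeR called 0 of the 8, where 5.53% of all genes were called (3.03% higher, 2.49% lower). At an unadjusted p under 0.05 there were 3 (Hlf, Bhlhe40 and Bhlhe41), against 19.4% of all genes, DESeq2 called 1 and limma voom 2, where they called 9.62% and 40.4% of all genes. No gene of the set had groups apart, against 4.91% of all genes. Between KO NASH and KO chow edgeR also called 0 of the 8, with 3.29% of all genes called (1.77% higher, 1.52% lower). An unadjusted p under 0.05 was reached by 3 (Nfil3, Ciart and Bhlhe40), against 22.2% of all genes, DESeq2 called 1 and limma voom 2 (9.02% and 12.7% of all genes), and only Bhlhe40 had groups apart (8.5% of all genes). The interaction (KO minus WT under NASH feeding, with KO minus WT under chow taken off) was called for 1 of the 8 (Bhlhe41), where 0.139% of all genes were called (0.0554% higher, 0.0831% lower), and 4 had an unadjusted p under 0.05, against 8.25%. The comparisons share groups, so their values for a gene are not independent.

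**Figure D1:**
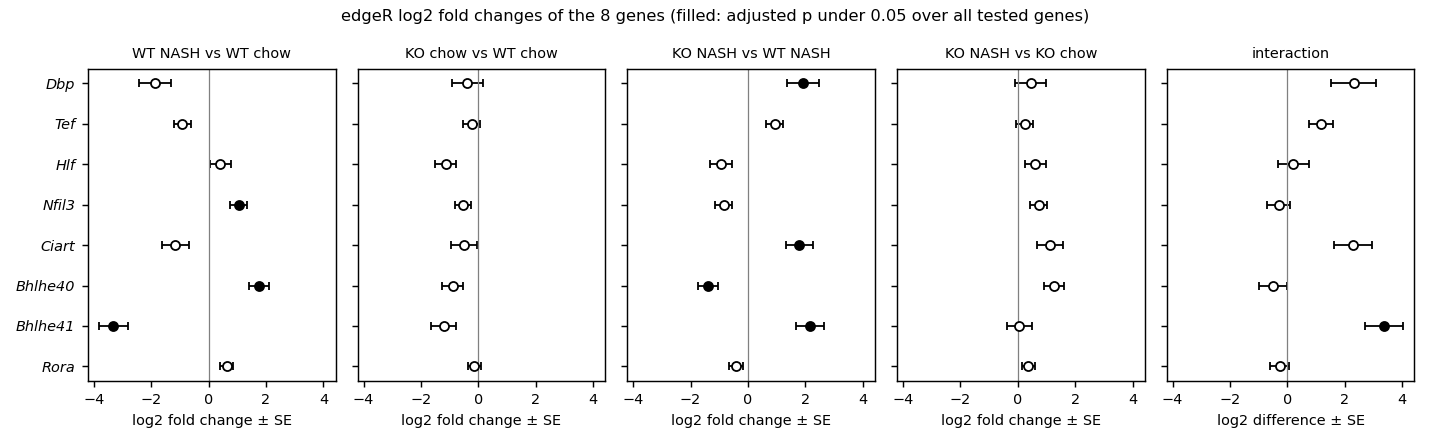
Log2 fold changes of the 8 genes in 5 comparisons from edgeR, with the SE as bars; filled points have an adjusted p under 0.05 over all tested genes. Bhlhe41 lies at -3.32 in WT NASH against WT chow, at 2.16 in KO NASH against WT NASH and at 3.38 in the interaction, the 3 comparisons in which it is filled.

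Per kilobase of annotated exon, the levels of the 8 genes in WT chow were led by Dbp at 19.1 ± 8.69 CPM per kb and Tef at 17.8 ± 4.42 CPM per kb (SD, n = 5), which did not differ beyond their spread. Nfil3 (8.38 ± 2.33), Hlf (6.47 ± 1.45), Bhlhe40 (6.43 ± 4.10) and Rora (5.15 ± 1.38 CPM per kb) followed, with spreads that overlapped from each to the next, then Ciart at 3.77 ± 1.99 CPM per kb and Bhlhe41 at 1.22 ± 0.395 CPM per kb. The order in WT NASH was another. Bhlhe40 stood at 21.8 ± 5.43 and Nfil3 at 17.3 ± 4.15 CPM per kb, with overlapping spreads, while Dbp was at 5.25 ± 4.36 and Bhlhe41 at 0.125 ± 0.0574 CPM per kb.

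**Figure D2:**
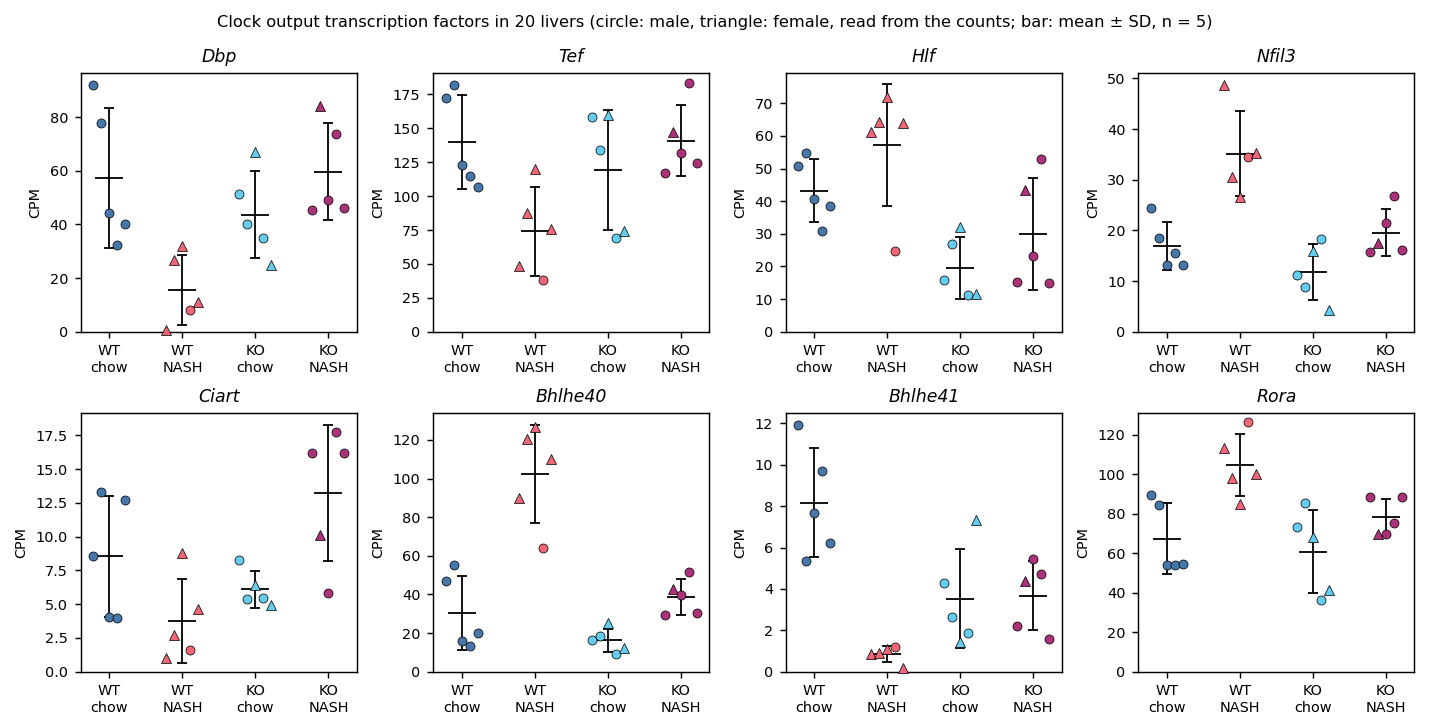
CPM of the 8 genes in the 20 livers, 1 panel per gene and 1 point per mouse, circles for males and triangles for females as read from Y-linked counts, with the mean and SD of each group of 5. Dbp and Bhlhe41 are low in WT NASH, at most 31.8 and 1.18 CPM, where Bhlhe40 is high, at least 64.0 CPM.

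Dbp encodes the PAR bZIP factor of largest daily swing in liver (GRCm38, chr7:45705088-45710203, plus strand). Its level in WT chow was 91.8, 77.9, 44.2, 32.4 and 40.1 CPM in replicates 1 to 5, and in WT NASH it was 0.7102, 26.6, 31.8, 8.24 and 11.2 CPM. Every WT NASH liver lay below every WT chow liver, the nearest being WT NASH replicate 3 and WT chow replicate 4, and WT NASH replicate 1 had 11 Dbp counts where the others of its group had 56 to 526. In KO NASH the level was 45.4, 84.2, 49.0, 73.5 and 46.0 CPM, so that all 5 livers lay above all 5 of WT NASH. KO chow, at 24.9 to 66.9 CPM, overlapped both WT chow and KO NASH. The group means were 57.3 ± 26.0 (WT chow), 15.7 ± 13.05 (WT NASH), 43.7 ± 16.1 (KO chow) and 59.6 ± 18.0 CPM (KO NASH).

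The fitted Dbp difference between KO NASH and WT NASH was a log2 fold change of 1.92 (SE 0.561, adjusted p = 0.0360 by edgeR), a 3.78-fold higher level in KO NASH. Its difference between WT NASH and WT chow was -1.86 (SE 0.561, adjusted p = 0.0538 by edgeR) and was not called. Without WT NASH replicate 1, WT NASH replicate 3 or KO chow replicate 5 this second difference was called, with edgeR adjusted p of 0.0369 to 0.0473 and log2 values of -2.29 to -1.55. This difference was also called by DESeq2 and limma voom, with the replicate number as a block, and with the length slope as a term, alone or with sex. The call in KO NASH was lost without WT NASH replicate 4 or 5 or any KO NASH library (edgeR adjusted p of 0.0515 to 0.0830), with sex as a term (2.25, adjusted p = 0.0514 by edgeR), with KO NASH replicates 1 and 5 summed (0.0534) and with those groups fitted alone (0.0695). In males alone, where WT NASH is 1 library, the value was 2.73 (adjusted p = 0.0151 by edgeR). The interaction was 2.31 (SE 0.776, adjusted p = 0.308 by edgeR), not called.

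Tef, the PAR bZIP factor of smaller swing (chr15:81802421-81826863, plus strand), had the pattern of Dbp at a smaller amplitude and was called in no comparison of the main fit. It was at 172, 182, 123, 115 and 107 CPM in WT chow and at 48.4, 87.5, 120.2, 38.1 and 75.9 CPM in WT NASH. Only WT NASH replicate 3 overlapped WT chow. KO chow was at 158, 134, 159.8, 69.1 and 74.4 CPM and KO NASH at 117, 147, 132, 183 and 124 CPM, the latter overlapping WT NASH through that same replicate. The log2 fold change was -0.92 (SE 0.301, adjusted p = 0.0767 by edgeR) for WT NASH against WT chow and 0.93 (SE 0.301, adjusted p = 0.0558 by edgeR) for KO NASH against WT NASH. Both were called without WT NASH replicate 3 (edgeR adjusted p of 0.0398 and 0.0239), and the second also without KO chow replicate 4 or 5 (0.0452 and 0.0394). With the length slope as a term both were called as well (-1.22 and 0.74, edgeR adjusted p of 0.00161 and 0.0224). The same held by DESeq2 and limma voom, with sex and the length slope together, and in the 14 libraries without a negative slope. With sex alone as a term neither was called. The second was also called with a mean of at least 5 CPM, with those groups fitted alone and with the replicate number as a block.

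Hlf, the remaining PAR bZIP gene (chr11:90336536-90390895, minus strand), had another order of group levels than Dbp and Tef. It was at 50.9, 54.9, 40.8, 30.9 and 38.6 CPM in WT chow and at 61.2, 64.3, 72.0, 24.7 and 64.1 CPM in WT NASH. The WT NASH females were above every WT chow liver and the WT NASH male, replicate 4, was below all of them. In KO chow the values were 15.8, 26.7, 32.1, 11.3 and 11.7 CPM, and in KO NASH 15.1, 43.6, 23.2, 52.8 and 14.96 CPM, so that only replicate 3 of KO chow reached the lowest WT chow value. The log2 fold change for KO chow against WT chow was -1.15 (SE 0.378, adjusted p = 0.0823 by edgeR). It was called with sex as a term (-1.42, adjusted p = 0.0292 by edgeR), with the length slope (-1.40, 0.0115) or both (-1.67, 0.00185), and without WT NASH replicate 4 (0.0465) or KO chow replicate 3 (0.0430). For KO NASH against WT NASH it was -0.94 (SE 0.375, adjusted p = 0.118 by edgeR), with 0.13 in males alone, where WT NASH is 1 library. This difference was called by limma voom, with the length slope as a term, and in the 14 libraries without a negative slope. That of KO chow against WT chow was also called by DESeq2 and limma voom.

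Nfil3, the D-box repressor, also an inducible factor of immune cells (chr13:52967209-52981073, minus strand), was the only one of the 4 D-box genes called for the diet in WT. It was at 24.5, 18.5, 13.1, 15.6 and 13.2 CPM in WT chow and at 48.8, 30.6, 26.5, 34.4 and 35.3 CPM in WT NASH. No WT NASH liver, the male included, was as low as any WT chow liver. KO chow was at 11.3, 8.89, 15.99, 18.2 and 4.31 CPM and KO NASH at 15.7, 17.6, 21.5, 26.8 and 16.1 CPM, the latter reaching WT NASH through replicate 4 alone. Nfil3 rose in WT NASH with a log2 fold change of 1.05 (SE 0.296, adjusted p = 0.0407 by edgeR), a 2.07-fold higher level. The KO NASH against WT NASH difference was -0.85 (SE 0.294, adjusted p = 0.0726 by edgeR) and was called without KO chow replicate 5 (adjusted p = 0.0275 by edgeR). It was also called by DESeq2 and limma voom, and with those groups fitted alone. The same held with the length slope as a term, alone or with sex, and in the 14 libraries without a negative slope.

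The Nfil3 call in WT NASH was lost when 1 of 9 libraries was left out (replicates 3, 4 and 5 of WT chow, 1, 2 and 5 of WT NASH, 2, 3 and 5 of KO NASH), with log2 fold changes of 0.90 to 1.09 and edgeR adjusted p of 0.0502 to 0.112. It was lost too without the filter on low counts (adjusted p = 0.0594 by edgeR), with sex as a term (adjusted p = 0.142 by edgeR), and with sex and the length slope together. The same held with KO NASH replicates 1 and 5 summed and in the 14 libraries without a negative length slope (log2 fold change 0.73, adjusted p = 0.162 by edgeR). In males alone, with 1 WT NASH library, the log2 fold change was 0.99. Markers of innate lymphoid and NK cells, which express Nfil3, had summed levels of 2.49 to 22.4 CPM (WT chow), 4.00 to 10.7 CPM (WT NASH), 3.06 to 12.6 CPM (KO chow) and 1.198 to 5.20 CPM (KO NASH). Of their 3 tested members (of 5) none was called in WT NASH against WT chow, and Gzma was lower in KO NASH than in WT NASH (log2 fold change -2.55, adjusted p = 0.0486 by edgeR). The part of these cells in the Nfil3 values was not tested.

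Set against each other in the same library, Dbp counts exceeded Nfil3 counts in all 15 livers outside WT NASH. The ratio of Dbp to Nfil3 counts had a lowest, median and highest value of 2.08, 3.36 and 4.22 in WT chow, 1.92, 4.52 and 5.77 in KO chow, and 2.27, 2.86 and 4.78 in KO NASH. In WT NASH it was 0.0146, 0.317 and 1.201, so that every WT NASH liver lay below every other liver. Against WT chow this follows from the levels given above, where Dbp lay wholly lower and Nfil3 wholly higher, and is not a further result. This ratio needs no scaling between libraries, but it compares genes of different length and so says nothing of which transcript was the more abundant.

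**Figure D3:**
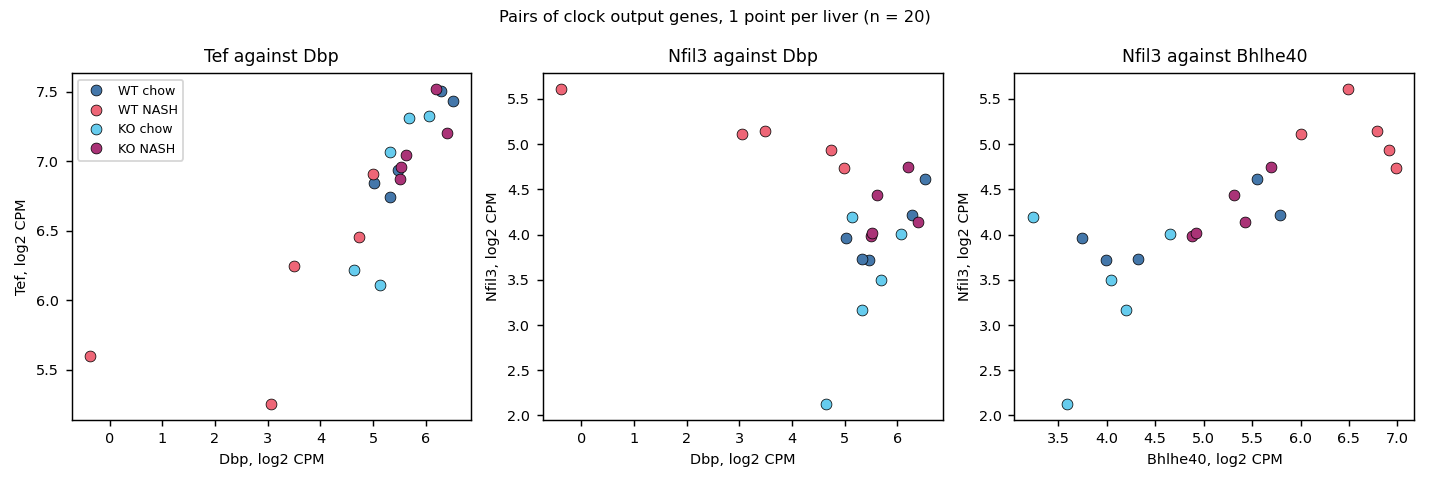
Tef against Dbp, Nfil3 against Dbp and Nfil3 against Bhlhe40, in log2 CPM, 1 point per liver and coloured by group. Tef and Dbp run together (Pearson r of 0.83 over 20 livers), and the WT NASH livers, with at least 26.5 CPM of Nfil3 and at most 31.8 CPM of Dbp, lie toward high Nfil3 and low Dbp.

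Ciart encodes a repressor that binds BMAL1 (chr3:95878503-95882251, minus strand). It was at 8.59, 13.3, 4.08, 3.99 and 12.7 CPM in WT chow and at 1.03, 2.73, 8.78, 1.62 and 4.65 CPM in WT NASH, and these groups overlapped. In KO chow it was at 8.29, 5.35, 6.44, 5.45 and 4.92 CPM and in KO NASH at 16.2, 10.1, 5.84, 17.7 and 16.2 CPM. All KO NASH livers but replicate 3 lay above all WT NASH livers. Ciart was called in KO NASH against WT NASH, with a log2 fold change of 1.79 (SE 0.470, adjusted p = 0.0221 by edgeR), a 3.46-fold higher level. This call was lost without WT NASH replicate 2 (adjusted p = 0.0565 by edgeR) or KO NASH replicate 5 (0.0502) and with sex as a term (1.83, 0.0776). In males alone it was 3.14 (adjusted p = 0.0372 by edgeR), with 1 WT NASH library, which had 11 Ciart counts. For WT NASH against WT chow the value was -1.17 (SE 0.467, adjusted p = 0.145 by edgeR), called without WT NASH replicate 3 (-1.75, 0.0358). The interaction, 2.28 (SE 0.652, adjusted p = 0.187 by edgeR), was called by DESeq2 (adjusted p = 0.0429) and not by edgeR.

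Bhlhe40 and Bhlhe41, the paralogous DEC repressors, changed in opposite directions on the NASH diet in WT and again between the genotypes on that diet. Bhlhe40 (chr6:108660629-108666925, plus strand), which also responds to feeding, hypoxia and immune signals, was at 46.7, 55.1, 15.9, 13.4 and 20.03 CPM in WT chow and at 90.1, 120.4, 127, 64.0 and 110.3 CPM in WT NASH. The lowest WT NASH value, that of the male, still lay above the highest WT chow value. KO chow was at 16.4, 18.3, 25.1, 9.37 and 12.0 CPM and KO NASH at 29.4, 43.0, 39.7, 51.7 and 30.3 CPM. Thus KO NASH lay wholly above KO chow and wholly below WT NASH.

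Bhlhe40 rose in WT NASH with a log2 fold change of 1.76 (SE 0.360, adjusted p = 0.00701 by edgeR), a 3.38-fold higher level, a call kept without any single library. It was lower in KO NASH than in WT NASH by a log2 fold change of -1.40 (SE 0.356, adjusted p = 0.0190 by edgeR), a call lost without KO NASH replicate 1 or 5 (0.0512 and 0.0527). With sex as a term neither was called (1.39 and -1.12, edgeR adjusted p of 0.148 and 0.120), and with sex and the length slope together both were (1.29 and -1.45, 0.00914 and 0.00178). For KO NASH against KO chow the value was 1.25 (SE 0.357, adjusted p = 0.0575 by edgeR). It was called with sex as a term (1.35, 0.0420), with the length slope (0.94, 0.0275), and without WT chow replicates 2, 3 or 4, WT NASH replicate 4 or KO chow replicate 3 (0.0332 to 0.0478). For KO chow against WT chow it was -0.90 (SE 0.355, adjusted p = 0.156 by edgeR), called with the length slope as a term (-1.03, 0.00865) and in the 14 libraries without a negative slope (-1.34, 0.00894).

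Bhlhe41 (chr6:145858243-145865558, minus strand) had the largest change of the set. It was at 11.9, 5.36, 7.66, 9.69 and 6.24 CPM in WT chow and at 0.839, 0.890, 1.09, 1.18 and 0.194 CPM in WT NASH, where it had 13, 15, 18, 8 and 3 counts. The WT NASH male was the highest of its 5 and still below every WT chow liver, all of them males. KO chow was at 4.31, 2.65, 1.44, 1.89 and 7.35 CPM and KO NASH at 2.22, 4.36, 5.46, 4.74 and 1.59 CPM. Both KO groups lay above all WT NASH livers, and overlapped each other over nearly their whole range.

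The Bhlhe41 log2 fold change for WT NASH against WT chow was -3.32 (SE 0.498, adjusted p = 0.000641 by edgeR), a 9.98-fold lower level that ranked 36 by p among the 14440 genes. It rose in KO NASH against WT NASH by 2.16 (SE 0.488, adjusted p = 0.00961 by edgeR), 4.48-fold. Each of these 2 calls held in all 20 fits that left out a library, and with sex as a term (-3.52 and 2.31, edgeR adjusted p of 0.00606 and 0.0208), but not in males alone (-2.82 and 1.60, 0.167 and 0.211), where WT NASH is 1 library. The interaction was 3.38 (SE 0.656, adjusted p = 0.0423 by edgeR). It was lost with sex as a term (3.64, 0.178) and without any WT chow library, WT NASH replicates 1, 2, 3 or 5, KO chow replicates 1 to 4, or KO NASH replicates 1, 3 or 4 (3.11 to 3.53, edgeR adjusted p of 0.0505 to 0.0936). In KO chow against WT chow the value was -1.21 (SE 0.438, adjusted p = 0.115 by edgeR), called without KO chow replicate 5 (-1.63, 0.0236), and in KO NASH against KO chow 0.06 (SE 0.435, adjusted p = 0.948 by edgeR).

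Macrophages and T cells also express the DEC genes, and their markers were set beside them. Macrophage markers had summed levels of 194 to 777 CPM (WT chow), 313 to 817 CPM (WT NASH), 265 to 1340.1 CPM (KO chow) and 263 to 343 CPM (KO NASH). Of the 5, Cd68 was called, higher in WT NASH (log2 fold change 1.01, adjusted p = 0.0380 by edgeR) and in KO chow (1.03, 0.0360) than in WT chow. T and B cell markers had summed levels of 4.98 to 9.21 CPM (WT chow), 7.94 to 16.04 CPM (WT NASH), 4.66 to 8.69 CPM (KO chow) and 3.50 to 7.52 CPM (KO NASH), the last wholly below WT NASH. Of the 6 tested, Cd3e was higher in WT NASH than in WT chow (2.15, adjusted p = 0.0188 by edgeR) and Cd3g lower in KO NASH than in WT NASH (-1.82, 0.0371). Of 5 endothelial markers Kdr was higher in KO NASH than in WT NASH (0.66, adjusted p = 0.0323 by edgeR), and of 5 stellate and 4 bile duct markers Col1a1 (2.26, 0.0287) and Sox9 (1.83, 0.0326) were higher in KO NASH than in KO chow. The part of these cells in the DEC values was not tested.

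Rora encodes the ROR receptor that activates Arntl in competition with REV-ERB (chr9:68653786-69388246, plus strand), and was called in no comparison. It was at 89.5, 84.4, 54.0, 54.1 and 54.5 CPM in WT chow, at 113, 97.9, 85.0, 126 and 100.3 CPM in WT NASH, at 73.1, 85.4, 68.2, 36.2 and 41.4 CPM in KO chow and at 88.3, 69.8, 69.7, 75.0 and 88.2 CPM in KO NASH. It had the smallest spread of the set in KO NASH, with a highest value 1.27 times the lowest. In both chow groups the low values were those of the libraries with a negative length slope. The log2 fold change for WT NASH against WT chow was 0.63 (SE 0.229, adjusted p = 0.107 by edgeR), and 0.20 in the 14 libraries without such a slope. It was called by limma voom (0.77, adjusted p = 0.00147) and with sex and the length slope as terms (0.72, adjusted p = 0.0253 by edgeR). For KO NASH against WT NASH it was -0.42 (SE 0.228, adjusted p = 0.257 by edgeR), called with the length slope as a term (-0.61, 0.0202) and with sex besides (-0.77, 0.00794).

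Of these genes, 6 overlap a gene on the opposite strand in GENCODE M21: Dbp (Sphk2), Tef (Gm17597), Ciart (C920021L13Rik), Bhlhe40 (0610040F04Rik), Bhlhe41 (Gm43909) and Rora (Gm15511). No source used here says whether counting used the strand, so reads of the partners cannot be told apart.

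The 13 genes described here as the core clock were all tested. In WT NASH against WT chow 2 were higher and 0 lower, where 5.93% of all genes were called, with a median log2 fold change of 0.08 against 0.01 for all genes. Arntl, which encodes BMAL1, rose from 2.91 ± 1.34 to 19.7 ± 7.21 CPM (2.74 on the log2 scale with an SE of 0.337, adjusted p = 9.4e-05 by edgeR), and this call was kept in every alternative run for it. Npas2, which encodes the CLOCK paralogue, rose from 0.240 ± 0.264 to 4.64 ± 3.47 CPM (4.14, SE 0.719, adjusted p = 0.00206 by edgeR). In KO NASH against WT NASH 1 was higher and 1 lower (9.65% of all genes called), with a median of 0.05 against 0.00. Arntl was lower, at 7.32 ± 2.64 CPM (-1.42, SE 0.316, adjusted p = 0.00880 by edgeR), and Csnk1e, which encodes a kinase of the PER proteins, was higher (1.01, SE 0.251, adjusted p = 0.0162 by edgeR, and 0.0691 with sex as a term). By edgeR 0 of the 13 were called in KO chow against WT chow, in KO NASH against KO chow or in the interaction. At an unadjusted p under 0.05 there were 0, 5 and 4, against 19.4%, 22.2% and 8.25% of all genes.

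**Figure D4:**
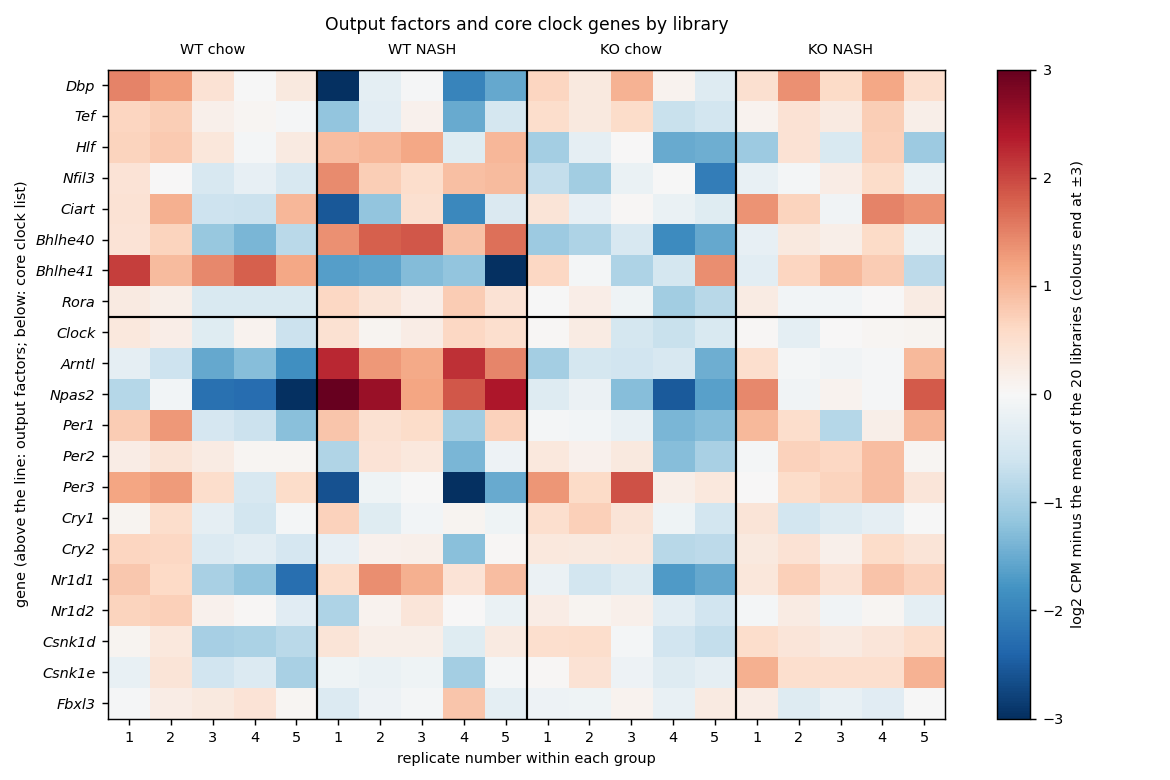
Log2 CPM of the 8 output genes (above the line) and of 13 core clock genes (below) in each of the 20 livers, minus the mean of the gene over all 20; colours end at ±3. In all 5 WT NASH columns Dbp and Bhlhe41 lie below their means, Dbp only slightly in replicates 2 and 3, and Arntl, Npas2, Nfil3 and Bhlhe40 lie above theirs; WT NASH replicate 1 holds the lowest Dbp value, 0.7102 CPM.

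Genes known as targets of the output factors were read next. Of 7 PAR bZIP targets, 1 was lower in WT NASH than in WT chow, where 5.93% of all genes were called, Alas1 of haem synthesis, at 298 ± 158 against 846 ± 272 CPM (-1.51 on the log2 scale with an SE of 0.370, adjusted p = 0.0207 by edgeR, and 0.0929 with sex as a term), where the list had a median of -0.65 against 0.01 for all genes. In KO chow 1 was lower (5.53% of all genes called), Cyp2b10 of drug oxidation, a member of a multigene family whose reads counting may split (-1.77, SE 0.464, adjusted p = 0.0304 by edgeR). The Alas1 call was lost without WT chow replicate 5 or WT NASH replicate 2 (edgeR adjusted p of 0.0555 to 0.0640), and that of Cyp2b10 without WT chow replicate 1 or 3 or KO chow replicates 1, 2 or 3 (0.0557 to 0.0883). In KO NASH against WT NASH edgeR called 0 of the 7 (9.65% of all genes), with 1 at an unadjusted p under 0.05. The share of all genes at that threshold was not counted in this fit. With RLE size factors 3706 of the 14440 genes reached it. In KO NASH against KO chow edgeR called 0 (3.29% of all genes), with 2 at an unadjusted p under 0.05, against 22.2% of all genes. Of 4 RORA targets, only Cyp8b1 of bile acid synthesis was called. It was called in WT NASH against WT chow and in KO NASH against WT NASH (5.93% and 9.65% of all genes). Its levels were 721 ± 110 CPM (WT chow), 239 ± 32.2 CPM (WT NASH), 860.1 ± 171 CPM (KO chow) and 546 ± 328 CPM (KO NASH), lower in WT NASH than in WT chow (-1.59, SE 0.292, adjusted p = 0.00311 by edgeR) and higher in KO NASH than in WT NASH (1.19, SE 0.289, adjusted p = 0.0145 by edgeR). With sex as a term neither held (0.0951 and 0.102), and without KO NASH replicate 3 the second was lost (0.0504).

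Of 10 other rhythmic liver transcripts, 6 were called in WT NASH against WT chow (5.93% of all genes), with 2 higher and 4 lower and a median of -0.36. Rgs16, which encodes a regulator of G protein signalling, was at 229 ± 175 against 24.0 ± 12.9 CPM (3.26 on the log2 scale with an SE of 0.572, adjusted p = 0.00217 by edgeR). Wee1, a cell cycle kinase gene under E-box control, was at 2.16 ± 0.826 against 10.7 ± 4.80 CPM (-2.30, SE 0.406, adjusted p = 0.00217 by edgeR), and Gys2, the liver glycogen synthase gene, at 103 ± 18.1 against 443 ± 97.2 CPM (-2.11, SE 0.235, adjusted p = 4.76e-05 by edgeR). In KO NASH against WT NASH 5 were called (9.65% of all genes), 3 higher and 2 lower, with a median of -0.28. These included Wee1 at 11.1 ± 4.86 CPM (2.36, SE 0.405, adjusted p = 0.00134 by edgeR), Rgs16 at 39.0 ± 24.1 CPM (-2.56, SE 0.554, adjusted p = 0.00743 by edgeR) and Avpr1a, a vasopressin receptor gene (-2.07, SE 0.309, adjusted p = 0.000479 by edgeR).

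On chow the KO gave 1 higher and 1 lower rhythmic transcript, Gys2 (1.15, SE 0.228, adjusted p = 0.00585 by edgeR) and Avpr1a (-1.42, SE 0.306, adjusted p = 0.00991 by edgeR). In that pair 5.53% of all genes were called. Between KO NASH and KO chow only Gys2 was called (-1.77, SE 0.232, adjusted p = 0.000788 by edgeR), where 3.29% of all genes were called. With sex as a term the Rgs16 calls were lost (edgeR adjusted p of 0.161 and 0.159), as was that of Wee1 in WT NASH (0.0670), while the Gys2 call in WT NASH was kept in every alternative run for it.

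Feeding and fasting state move several clock outputs, and 11 genes of that response were read in the same libraries. In WT NASH against WT chow 3 were higher and 0 lower (5.93% of all genes called), with a median of -0.20, opposite in sign to the calls. By edgeR 7 had an unadjusted p under 0.05, a threshold whose share of all genes was not counted for this pair. Srebf1, a lipogenic factor gene, was at 117 ± 40.6 against 19.04 ± 3.399 CPM (2.61, SE 0.310, adjusted p = 7.41e-05 by edgeR), Pnpla3, a lipid droplet protein gene, at 3.15 ± 2.47 against 0.570 ± 0.563 CPM (2.58, SE 0.715, adjusted p = 0.0380 by edgeR), and the glucocorticoid target Tsc22d3 at 189 ± 34.1 against 66.02 ± 17.4 CPM (1.51, SE 0.312, adjusted p = 0.00717 by edgeR). In KO chow against WT chow 1 was higher, Pdk4 of fasting metabolism (3.76, SE 0.700, adjusted p = 0.00400 by edgeR), and 1 lower, Tsc22d3 (-1.43, SE 0.312, adjusted p = 0.0116 by edgeR). The list's median was 0.41, and 5.53% of all genes were called.

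In KO NASH against WT NASH 1 of the 11 was higher, Fgf21, a fasting hormone gene (1.82, SE 0.553, adjusted p = 0.0423 by edgeR), and 3 were lower, among them Pnpla3 (-3.57, SE 0.738, adjusted p = 0.00537 by edgeR) and Tsc22d3 (-1.63, SE 0.313, adjusted p = 0.00302 by edgeR), with a median of 0.64. In that pair 9.65% of all genes were called. In KO NASH against KO chow 1 was higher (3.29% of all genes called), Tsc22d3 (1.31, SE 0.311, adjusted p = 0.0301 by edgeR), with a median of -0.07. With sex as a term Tsc22d3 (0.152) and Pnpla3 (0.643) were not called in WT NASH against WT chow, nor Pnpla3 in KO NASH against WT NASH (-2.63, 0.0774). In WT NASH against WT chow Pnpla3 was lost without 8 single libraries (edgeR adjusted p of 0.0502 to 0.117): WT chow replicates 1, 2, 4 and 5, WT NASH replicates 2, 3 and 5, and KO NASH replicate 5. Fgf21 in KO NASH against WT NASH was lost without any 1 of 9 libraries (edgeR adjusted p of 0.0513 to 0.137), namely WT chow replicate 3, WT NASH replicates 2, 3, 5, KO NASH replicates 1, 2, 3, 4, 5. Tsc22d3 in KO NASH against KO chow was lost without any of replicates 1, 2, 4 and 5 of either group (0.0529 to 0.0739). The part of feeding state, like that of the hour of collection, in the values of the 8 genes was not tested.

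Across the 20 livers, the log2 levels of the 8 genes fell into groups that were described by Pearson correlation, with no test, since livers of a group share diet and genotype and libraries share the scaling and the length slope. Dbp and Tef had the highest correlation (r of 0.83, Spearman rho 0.92), at 0.84 without the 2 livers farthest from the Dbp median, at 0.67 once group means were removed, and at 0.93 in the 14 and 0.91 in the 6 libraries of the slope classes. Bhlhe40 and Rora came next (r of 0.80, rho 0.78), at 0.53 with group means removed, and at -0.76 when this was done in the 14 libraries alone. Nfil3 and Bhlhe40 had an r of 0.79 (rho 0.85), but 0.31 with group means removed. Dbp and Ciart also had an r of 0.79 (rho 0.71), but 0.55 without the 2 livers farthest from the Dbp median. Hlf and Bhlhe40 had an r of 0.75, and 0.74 with group means removed. Within groups Tef went with Bhlhe40 (0.78) and with Hlf (0.75) to a like degree, although over all 20 livers its r with them was -0.15 and 0.13. Dbp and Nfil3, whose products act in opposite directions at the D-box, had an r of -0.46. It was -0.02 without WT NASH replicates 1 and 4, and -0.05 with group means removed. In the 14 libraries, which hold WT NASH replicate 1, it was -0.63, and -0.42 with group means removed. In the 6 libraries, which hold WT NASH replicate 4, it was -0.45.

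Among 9038 genes that averaged 5 CPM or more, those whose log2 level was most like that of Dbp over the 20 livers were Tef (r of 0.83), Ciart (0.79), Wee1 (0.75), Camk2b (0.73) and Dclre1a (0.72). Without WT NASH replicates 1 and 4, those of Wee1 and Camk2b fell to 0.52 and 0.40. The least like were Cyp51 (-0.74) and Fdps (-0.73), which encode enzymes of cholesterol synthesis, and Tpst2 (-0.70). Nfil3 was most like Mug2 (0.92), Vtn (0.91), Kcnn2 (0.89), Trf (0.88) and Itm2b (0.88), genes that include those of the secreted liver proteins murinoglobulin (a family whose reads counting may split), vitronectin and transferrin, and least like Odc1 (-0.89), Gtdc1 (-0.88) and Wdr73 (-0.87). Without its 2 outermost livers, KO chow replicate 5 and WT NASH replicate 1, these 8 values for Nfil3 stayed between 0.80 and 0.87 in size, apart from Gtdc1 at -0.79. None of the 5 genes most like Nfil3 was in the set or in the core clock list, while 2 of the 5 most like Dbp were in the set.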

How the data were processed

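Liver RNA of 20 mice was extracted with Trizol and sequenced after a standard Illumina library preparation, per the labels' protocols. The authors deposited raw counts per gene symbol, 1 column per library, with no replicates pooled. The submitters' processing notes name HISAT2 2.0.4 and GRCm38; no source used here gives the counting program, its annotation or its strand setting. Column names with HFD were matched to the NASH groups, the other diet being chow. Replicates are the numbered samples of a group.

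The tests used edgeR 4.0.16 in R 4.3.3, with filterByExpr (minimum count 10), TMM scaling, 1 fit of all 20 libraries with a coefficient per group, the quasi-likelihood F test and Benjamini-Hochberg adjustment over 14440 genes, called at 0.05. SE is the unshrunk log2 fold change over the root of F. The fit was tested on simulated counts. Totals of 9958935 to 20601955 counts limit the precision of genes near 1 CPM, such as Bhlhe41 in WT NASH.

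Sex was read from the counts (at least 100 over Y-linked genes for a male), and the length slope of each library was fitted over 9480 genes with GENCODE M21 exonic lengths, which also gave gene positions (GRCm38); lengths matched 13502 tested genes. Correlations used log2 CPM with a prior count of 1. Named are the 8 genes, Pck1, up to 3 called members of each of 5 lists per comparison by fold size, and the genes most and least like Dbp and Nfil3. Members and lists were chosen with earlier results of these data known. Of the listed genes, 2 are not reported here and were left out of their lists' counts and medians. The fits to the 14 libraries without a negative slope and to females alone are alternatives added once the values had been seen. Those listed earlier used RLE factors, TMM without the 20 most abundant genes, no filter, a mean of at least 5 CPM, DESeq2 1.42.0, limma 3.58.1 voom with quality weights, the groups compared alone, the replicate number as a block, sex and slope terms, males alone, KO NASH replicates 1 and 5 summed, and each library left out.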

Additional observations from a re-analysis of the deposited data

Results flagged for a closer look

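Hlf in WT NASH had 1 liver far from the others. Replicate 4, the only male of its group and the only WT NASH library with a negative length slope, was at 24.7 CPM where the other 4 were at 61.2 to 72.0 CPM, a gap of 0.771 of the whole range. It was the only such liver among 32 sets of 5 livers (8 genes in 4 groups), and chance alone marks about 1 in 20. The parts of sex and of the length slope cannot be told apart in that group.

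For Bhlhe41 the test of whether the genotype difference differs between the diets passed the threshold, by a small margin. KO was lower than WT on chow by a log2 fold change of -1.21, which was not called, and higher on the NASH diet by 2.16, and the difference of the 2, the interaction, was 3.38 (SE 0.656, adjusted p = 0.0423 by edgeR). All 5 KO NASH livers lay above all 5 WT NASH livers. WT NASH held 3 to 18 counts of this gene per library. The call was lost in 16 of 20 fits that left out a library, with sex as a term (0.178), in males alone (0.271), with the replicate number as a block (0.0836) and with KO NASH replicates 1 and 5 summed (0.0545), all by edgeR.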

How the results depend on the processing

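Counts are of the 8 genes called, with the share of all genes called in the same fit in brackets. The fits of males alone and of females alone left 1 library in WT NASH or in KO NASH, and their counts are not given. For WT NASH against WT chow (3) they were 5 with DESeq2 (10.4%), 6 with limma voom (40.6%), 1 with sex as a term (1.11%), 5 with the length slope (12.1%) and 5 with both terms (5.01%). Without single libraries they were 2 to 6 (2.82% to 11.7%), with 6 reached without WT NASH replicate 3 (3.6%). For KO chow against WT chow (0) they were 1 with DESeq2 (9.62%), sex (5.84%) and the 14 libraries without a negative slope (5.33%), and 2 with voom (40.4%), the slope (11.5%) and both terms (13.8%). Without single libraries they were 0 to 1 (2.37% to 8.32%), with 1 without WT NASH replicate 4 (7.53%), KO chow replicate 3 (5.81%) or KO chow replicate 5 (8.32%). For KO NASH against WT NASH (4) they were 7 with voom (23.8%), both terms (10.6%) and the 14 libraries (20.3%), 8 with the slope (16.5%), 1 with sex (4.33%) and 2 with KO NASH replicates 1 and 5 summed (5.23%). Without single libraries they were 1 to 6 (4.89% to 11.8%), with 1 without KO NASH replicate 5 (4.89%) and 2 without KO NASH replicate 1 (5.38%). For KO NASH against KO chow (0) they were 1 with DESeq2 (9.02%), the groups alone (2.33%), sex (3.98%), the slope (6.39%), both terms (9.37%) and the 14 libraries (7.69%), 2 with voom (12.7%), and 0 to 1 without single libraries (1.01% to 5.4%). For the interaction (1) they were 0 with a mean of at least 5 CPM, where Bhlhe41 was not tested (0.126%), and 0 with sex (0.0277%) and with the summed replicates (0.0274%), all by edgeR. They were 2 with DESeq2 (1.31%), voom (13.5%) and the slope (1.32%), and 0 to 1 without single libraries (0.0272% to 0.981%).

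Signs turned for Hlf in WT NASH against WT chow with sex (-0.22), both terms (-0.44) and in males (-0.83), and in KO NASH against WT NASH in males (0.13). With voom Dbp (0.038), Tef (0.13), Ciart (0.066) and Rora (0.27) turned in KO chow, and the Hlf interaction turned to -0.27. In the 14 libraries Tef turned in KO NASH against KO chow (-0.10) and the Hlf interaction was -0.044. In males the Bhlhe40 interaction was 0.30, Pnpla3 was at -1.90 in WT NASH and 0.25 in KO NASH against WT NASH, and Rgs16 was at 0.66 in the latter. None of these member values was called in its comparison. Without single libraries, Bhlhe41 in KO NASH against KO chow ran from -0.14 to 0.48 and the Hlf interaction from -0.10 to 0.46. Among males the median over all tested genes moved to 0.195 for KO NASH against WT NASH. The median absolute r between the 8 genes was 0.467, and 0.293 with group means removed. The causes were not tested.

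With the replicate number as a block, 4, 0, 5 and 1 of the 8 genes were called in the pairs above (7.11%, 6.11%, 10.1% and 3.7% of all genes) and 0 in the interaction (0.0277%). Deviations from the group mean had a median r of 0.01 over 30 same-numbered pairs (-0.49 to 0.67, 13 over 0.1), against -0.02 over 120 other pairs. For 6 of 20 libraries the number with the highest mean r in the other groups was their own. The libraries with a negative length slope all carry the numbers 3, 4 or 5, so this cannot settle whether the numbers pair the mice. Of 563 alternative values of the 8 genes, 473 kept their sign and side of the threshold. A call was lost in 25 and gained in 53, and the sign turned in 12. Most of the 563 belong to differences not called in the main fit, so the 473 do not measure how well the calls held. KO NASH replicates 1 and 5 were the closest pair within a group (chi-square per gene 7.81, next 21.5), above sampling noise. Bhlhe41 in WT NASH is limited by its counts.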
